A study of Mus musculus with 16 samples.

Results

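The genes examined were 36 type I interferon-stimulated genes, taken as a list of gene names, with earlier results of these tumors known. Of these, 34 had a probe set annotated to them alone, out of 18193 genes named on the array. Isg15, the ubiquitin-like modifier of the pathway, was listed only on a probe set shared with another gene, and no probe set was listed for Ifi44, so both were not analysed here. RNA came from whole PDA30364 tumors, a mouse pancreatic tumor line implanted subcutaneously into C57BL/6-Ly5.1 mice of 6 to 12 weeks, with 4 arrays in each of 4 groups. In the labels 1 animal number stands on both GEM replicate 3 and GEM replicate 4, so the GEM arrays may stand for 3 animals and not 4. The GEM/anti-CD40 Ab group received gemcitabine and the agonist antibody, a mouse IgG1 against CD40. The anti-CD40 Ab group received the antibody with the vehicle of gemcitabine. The GEM group received gemcitabine with control IgG, and the control group vehicle with control IgG. Treatment days 1, 5 and 12 were those of gemcitabine (120 mg/kg), a nucleoside drug that stops dividing cells from copying their DNA. Antibody followed on days 3, 4, 6 and 14, and tumors were taken 22 or 23 days after the cells had been injected into the flank. All tumors derive from 1 cell line, so the spread within a group is that between mice carrying the same tumor line, and whole pieces hold tumor, stroma and immune cells together.

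Type I interferons (interferon alpha and beta) bind a receptor made of Ifnar1 and Ifnar2, whose kinases Tyk2 and Jak1 activate a complex of STAT proteins with Irf9. That complex binds the interferon-stimulated response element (ISRE) and switches on genes that block viral RNA, sense it or restrain the response. Interferon gamma acts through its own receptor and through another DNA element, and it induces part of the same genes. In tumors these genes can be expressed by cancer cells, stroma and leukocytes alike, and agonist anti-CD40 Ab acts on antigen-presenting cells that express CD40.

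Values are RMA expression values on a log2 scale, so a difference of 1 is a doubling. Array medians over all probe sets lay between 5.60 and 5.66. The tumor epithelium markers Krt8, Krt18, Krt19 and Epcam averaged 12.48 to 13.17 over the 16 arrays. Several arrays stood apart before any comparison. Skin keratinocyte genes averaged 9.81 in control replicate 2 and 7.71 in anti-CD40 Ab replicate 2, against 5.12 to 5.91 in the other arrays, and skeletal muscle genes averaged 12.97 in GEM/anti-CD40 Ab replicate 4 and 8.07 in GEM replicate 4, against 4.40 to 7.54 elsewhere. Whether GEM replicates 3 and 4 come from 1 animal could not be settled from the values, since all arrays of a group correlated at 0.987 to 0.997. They entered as separate samples, so p-values that involve GEM are too small if they share an animal. GEM/anti-CD40 Ab replicate 1 had the highest value of all 16 arrays for 33 of the 34 members.

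By group averages, the mean of the 34 members was highest in the 2 antibody-treated groups and lowest in the GEM group. It was 9.39, 8.63, 8.00 and 8.33 in the GEM/anti-CD40 Ab tumors, 8.43, 8.40, 8.51 and 8.74 in the anti-CD40 Ab tumors, 7.38, 7.61, 7.42 and 7.52 in the GEM tumors, and 8.15, 7.56, 7.47 and 8.18 in the control tumors. All GEM/anti-CD40 Ab values lay above all GEM values, and all anti-CD40 Ab values lay above all control values. The GEM tumors overlapped with the controls, whose replicates 1 and 4 were well above replicates 2 and 3. The GEM/anti-CD40 Ab tumors overlapped with the controls as well, since control replicates 1 and 4 lay above GEM/anti-CD40 Ab replicate 3. Group means were 8.59 ± 0.59 for GEM/anti-CD40 Ab, 8.52 ± 0.15 for anti-CD40 Ab, 7.48 ± 0.11 for GEM and 7.84 ± 0.37 for control (SD, n = 4 each). In order of the means, GEM/anti-CD40 Ab and anti-CD40 Ab lay 0.07 apart, less than the spread of either group, and GEM lay 0.36 below control, less than the spread of the controls. These means describe the module and carry no test of their own. In RNA from whole tumor pieces, fewer cells of a type and less RNA per cell cannot be told apart.

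**Figure D1:**
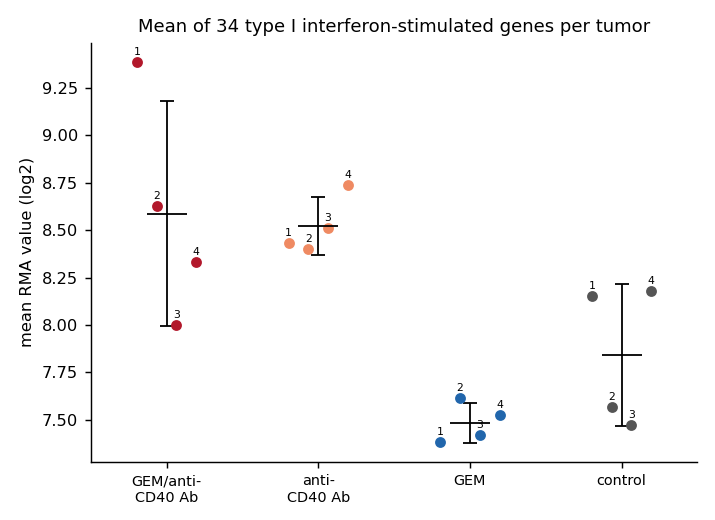
Mean RMA value (log2) of the 34 measured members in each of 16 tumors, by treatment group; points are tumors numbered by replicate, horizontal lines are group means and bars are SD (n = 4). The GEM/anti-CD40 Ab tumors range between 8.00 and 9.39 and the anti-CD40 Ab tumors between 8.40 and 8.74, while the GEM tumors stay between 7.38 and 7.61.

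With both antibody-treated groups set against both groups without antibody, in a fit over 16 arrays that allowed for GEM, 12 members rose and none fell. They were Usp18, Ifit1, Irf7, Xaf1, Ifit3, Oas1a, Cmpk2, Ifih1, Bst2, Parp14, Rtp4 and Rsad2, at an adjusted p under 0.05 (limma, Benjamini-Hochberg over all probe sets, two-sided). Of all 18193 named genes, 0.561% were called in this comparison, and 0.429% were called as higher. All 34 members had a log2 change above 0, between 0.20 and 1.67 with a median of 0.85, where the median over all genes was -0.02 and 41.4% of genes lay above 0. All 34 also had an unadjusted p under 0.05 as higher, which 7.4% of all genes had. For none of the 34 did all antibody-treated tumors lie above all others, which was so for 30 of the 18193 named genes. Among the 22 members that were not called were Ifit2 (1.30 ± 0.29, adjusted p = 0.0630) and Oasl2 (1.41 ± 0.30, adjusted p = 0.0536), while Mx2 had the largest adjusted p, 0.253. With GEM replicates 3 and 4 averaged into 1 sample, 1 member was called, Usp18 (adjusted p = 0.0348), and the other 11 had an adjusted p between 0.0608 and 0.101. Usp18 was also the 1 member that stayed past the threshold whichever array was left out, and the number of members called without 1 array ranged between 1 and 21. It was 1 without control replicate 2 or 3, anti-CD40 Ab replicate 4 or GEM replicate 1, 3 or 4, also 1 without 3 arrays high in skin or muscle genes (anti-CD40 Ab replicate 2, GEM/anti-CD40 Ab replicate 4 and control replicate 2), and 21 without GEM/anti-CD40 Ab replicate 3.

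Promoters of the members were searched for the DNA elements of the 2 interferon responses, and 5 are shown because their genes are called members with an ISRE ahead of the start site. RefSeq windows of 250 bases before and 50 after each start site (GRCm38.p6) were at hand for 26 of the 36 members, 24 of them measured. The ISRE was searched as GAAANNGAAA on both strands, N being any base. It occurred in 11 of the 26 (42.3%), against 3.99% of all 27025 genes with a window. The stretches below lie ahead of the start site of their window, 5′ to 3′ on the strand of the gene, with each ISRE match in capitals. As annotated, the Ifit3 gene begins at 34583119 and the Oas1a gene reaches to 120907544. The Ifit3 stretch and part of the Oas1a stretch thus lie within the annotated gene. They are Ifit1 (chr19:34640759-34640838, plus strand), Ifit3 (chr19:34583354-34583433, plus strand), Oas1a (chr5:120907526-120907605, minus strand), Rsad2 (chr12:26456529-26456608, minus strand) and Bst2 (chr8:71537556-71537635, minus strand).
Ifit1: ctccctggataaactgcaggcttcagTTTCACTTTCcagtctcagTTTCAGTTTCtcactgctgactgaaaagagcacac
Ifit3: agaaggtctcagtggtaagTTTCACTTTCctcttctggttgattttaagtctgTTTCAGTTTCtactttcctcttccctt
Oas1a: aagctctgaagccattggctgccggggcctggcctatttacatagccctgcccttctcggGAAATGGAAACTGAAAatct
Rsad2: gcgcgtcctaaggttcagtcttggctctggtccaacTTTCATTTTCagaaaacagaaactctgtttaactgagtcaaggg
Bst2: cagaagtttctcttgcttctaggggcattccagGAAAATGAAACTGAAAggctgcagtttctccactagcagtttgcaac
Ifit1 and Ifit3 each hold 2 separate matches, and in Oas1a and Bst2 a pair of matches overlaps. The other members with a match were Isg15, Oas3, Ddx60, Ifih1, Trim30a and Eif2ak2. Of the called members, Irf7, Cmpk2 and Xaf1 had no ISRE match in the window. For the called members Usp18, Parp14 and Rtp4 no window was at hand, so they were not searched. The interferon gamma element, searched as TTCNNNGAA, which reads the same on both strands, was found in 6 of 26 (Ifit2, Oas1a, Ifi35, Bst2, Eif2ak2 and Adar), 23.1% against 9.55% of genes. The NF-kB element GGGANNTTCC was found in 1 of 26, Ifit2, 3.85% against 1.63% of genes. A match is a description of letters and not of a bound site.

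The Ifit proteins bind foreign RNA and keep it from being translated, and Ifit1 had the largest antibody difference of the module. Its values were 9.54, 8.31, 7.32 and 7.92 in the GEM/anti-CD40 Ab tumors, 8.19, 8.17, 8.75 and 8.51 in the anti-CD40 Ab tumors, 6.36, 6.34, 6.05 and 5.93 in the GEM tumors, and 7.49, 6.89, 6.59 and 7.72 in the control tumors. Every GEM tumor was below every other tumor, and every anti-CD40 Ab tumor was above every control. Over both backgrounds Ifit1 rose by 1.67 ± 0.27 with the antibody (SE, 3.18-fold, adjusted p = 0.0230) and Ifit3 by 1.43 ± 0.24 (2.70-fold, adjusted p = 0.0309). Ifit3 read 10.03, 8.61, 7.89 and 8.29 in GEM/anti-CD40 Ab, 8.69, 8.63, 9.06 and 8.97 in anti-CD40 Ab, 6.81, 7.01, 6.72 and 6.82 in GEM, and 8.18, 7.80, 7.44 and 7.94 in control tumors. It showed the same order of groups as Ifit1, with no overlap between GEM, control and anti-CD40 Ab tumors. Ifit2 read 9.42, 8.12, 6.77 and 7.76 in GEM/anti-CD40 Ab tumors, between 7.54 and 8.21 in anti-CD40 Ab tumors, between 6.10 and 6.63 in GEM tumors and between 6.18 and 7.22 in controls. GEM and control tumors overlapped for Ifit2. Ifit3 and Oas1a have near-identical copies in the mouse genome, and the share of their signal that comes from such copies was not tested.

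Irf7, the transcription factor that drives the interferon alpha genes themselves, had the same order of groups as Ifit1. It read 9.62, 8.20, 7.43 and 7.92 in GEM/anti-CD40 Ab tumors, 8.39, 8.36, 8.30 and 8.58 in anti-CD40 Ab tumors, 6.68, 6.58, 6.57 and 6.46 in GEM tumors, and 7.58, 7.01, 6.85 and 7.53 in controls. Apart from GEM/anti-CD40 Ab replicate 1, the highest tumors were all 4 of the anti-CD40 Ab group, which lay within a narrow range. The change over both backgrounds was 1.44 ± 0.23 (2.72-fold, adjusted p = 0.0230).

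Usp18 removes Isg15 from its targets and also restrains the type I interferon receptor, and it had the smallest p of the module. Its values were 9.75, 8.92, 8.37 and 8.38 in GEM/anti-CD40 Ab tumors, 8.70, 8.93, 9.26 and 9.25 in anti-CD40 Ab tumors, 7.45, 7.30, 7.05 and 7.11 in GEM tumors, and 8.44, 7.56, 7.51 and 8.04 in controls. Among the 8 tumors without antibody only control replicate 1, at 8.44, reached into the range of the 8 antibody-treated tumors. Usp18 rose by 1.39 ± 0.19 over both backgrounds (2.62-fold, adjusted p = 0.0144), and its adjusted p stayed between 0.00377 and 0.0380 with any 1 array left out. The other measured genes of the Isg15 and ubiquitin pathway had changes between 0.20 and 1.19 and were not called. They were Trim30a (1.19 ± 0.26, adjusted p = 0.0579), the ubiquitin ligase Dtx3l (0.65 ± 0.15), Herc6, the ligase that attaches Isg15 in mice (0.42 ± 0.12, and 0.79 to 0.96 on its 3 other probe sets), and Trim25, a ubiquitin ligase for the RNA sensor RIG-I (0.20 ± 0.05).

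**Figure D2:**
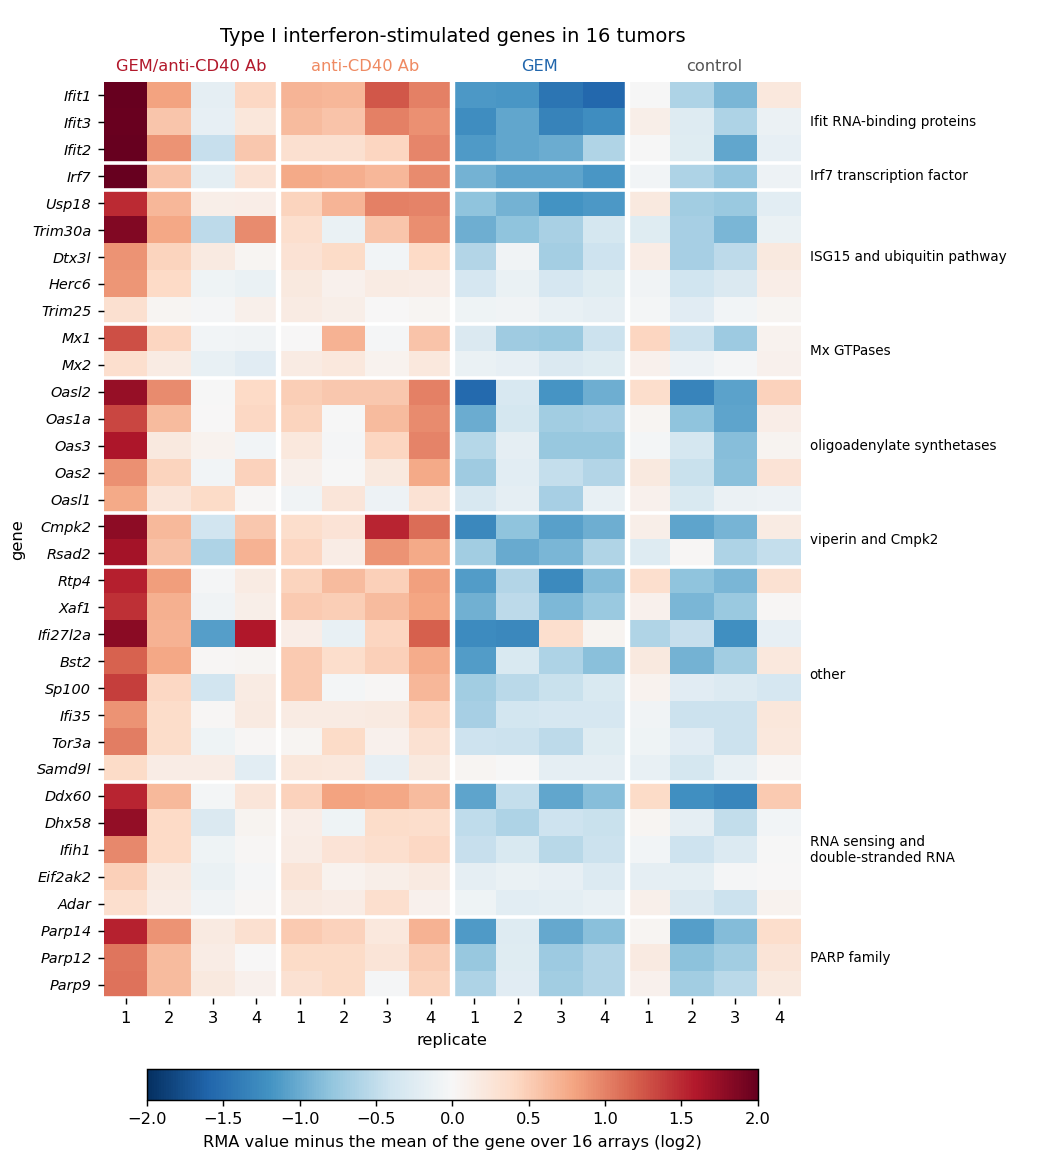
RMA value (log2) of each of the 34 measured members minus its own mean over 16 arrays, with genes in rows grouped by role and tumors in columns by group and replicate; red is above and blue below the gene's mean, and differences past 2 are drawn as 2. GEM/anti-CD40 Ab replicate 1 is the highest column for 33 of 34 genes, and control replicates 1 and 4 are the higher controls for 29.

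The oligoadenylate synthetases make the short RNA that activates RNase L, and Oas1a was the 1 of 5 that passed. It read 10.17, 9.47, 8.84 and 9.25 in GEM/anti-CD40 Ab, 9.28, 8.83, 9.48 and 9.78 in anti-CD40 Ab, 7.85, 8.49, 8.14 and 8.18 in GEM, and 8.88, 8.04, 7.79 and 8.97 in control tumors. All GEM/anti-CD40 Ab tumors were above all GEM tumors, while control replicates 1 and 4 overlapped with the antibody-treated tumors. The change of Oas1a over both backgrounds was 1.10 ± 0.21 (2.14-fold, adjusted p = 0.0411). Oasl2 had a larger change, 1.41, and a larger spread, with 8.81, 7.14, 7.39 and 8.92 in the control tumors alone. Oas2 differed by 0.70 ± 0.18, Oas3 by 0.86 ± 0.23 and Oasl1, which restrains Irf7 in mice, by 0.44 ± 0.12. The Mx proteins, dynamin-like GTPases that block viral replication, were not called. Mx1 differed by 0.71 ± 0.21 and Mx2 by 0.20 ± 0.07, and Mx2 lay between 5.64 and 6.28 in all 16 tumors.

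Rsad2 (viperin, which makes a chain-terminating nucleotide) and Cmpk2, a mitochondrial nucleotide kinase, are neighbors on chromosome 12 and were both called. Rsad2 read 9.69, 8.61, 7.41 and 8.72 in GEM/anti-CD40 Ab, 8.46, 8.17, 8.92 and 8.79 in anti-CD40 Ab, 7.34, 7.02, 7.11 and 7.43 in GEM, and 7.77, 8.05, 7.41 and 7.55 in control tumors. GEM/anti-CD40 Ab replicate 3 fell within the range of the tumors without antibody, and the other 7 antibody-treated tumors were above that range. The change of Rsad2 was 1.14 ± 0.24 (2.20-fold, adjusted p = 0.0497) and that of Cmpk2 was 1.47 ± 0.28 (2.77-fold, adjusted p = 0.0411). Cmpk2 read 7.57, 6.43, 5.39 and 6.32 in GEM/anti-CD40 Ab, 6.13, 6.06, 7.31 and 6.90 in anti-CD40 Ab, 4.49, 4.97, 4.70 and 4.80 in GEM, and 5.89, 4.72, 4.85 and 5.94 in control tumors. For Cmpk2 the overlap was between control replicates 1 and 4 and GEM/anti-CD40 Ab replicate 3. The second Cmpk2 probe set gave a change of 0.59, against 1.47 for the first.

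Among the genes that sense or act on double-stranded RNA, Ifih1 (the sensor MDA5) was called. It read 10.13, 9.57, 9.09 and 9.19 in GEM/anti-CD40 Ab, 9.32, 9.45, 9.51 and 9.59 in anti-CD40 Ab, 8.71, 8.86, 8.62 and 8.74 in GEM, and 9.12, 8.75, 8.89 and 9.16 in control tumors. Its range was narrow, and its change of 0.62 ± 0.12 (1.54-fold, adjusted p = 0.0442) was the smallest of the 12 called members. The helicase Ddx60 had a larger change, 1.26 ± 0.27, that did not pass (adjusted p = 0.0561). Dhx58, the sensor LGP2, differed by 0.67 ± 0.22, the RNA-editing enzyme Adar by 0.30 ± 0.08 and Eif2ak2 (the kinase PKR) by 0.28 ± 0.07. Of the PARP proteins, which bind or attach ADP-ribose, Parp14 rose by 1.21 ± 0.24 (2.31-fold, adjusted p = 0.0460). Parp12 differed by 0.85 ± 0.18 (adjusted p = 0.0525) and Parp9, the partner of Dtx3l, by 0.77 ± 0.17 (adjusted p = 0.0561).

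Of the 8 remaining members, Xaf1, Bst2 and Rtp4 were called. Xaf1, a partner of the apoptosis inhibitor XIAP, read 10.27, 9.51, 8.74 and 8.93 in GEM/anti-CD40 Ab, 9.33, 9.29, 9.44 and 9.60 in anti-CD40 Ab, 7.85, 8.28, 7.90 and 8.07 in GEM, and 8.89, 7.89, 8.06 and 8.83 in control tumors, a change of 1.17 ± 0.20 (2.25-fold, adjusted p = 0.0306). Bst2 (tetherin, which holds budding virus at the cell surface) changed by 1.03 ± 0.20 (2.05-fold, adjusted p = 0.0443) and Rtp4, a chaperone of membrane receptors, by 1.23 ± 0.25 (2.34-fold, adjusted p = 0.0460). For Xaf1, Bst2 and Rtp4, control replicates 1 and 4 stood above the lowest GEM/anti-CD40 Ab tumor. Ifi35, which binds the interferon-induced protein Nmi, differed by 0.60 ± 0.13 (adjusted p = 0.0525). Sp100, a component of PML nuclear bodies, differed by 0.69 ± 0.19, the torsin ATPase Tor3a by 0.53 ± 0.14 and Samd9l by 0.24 ± 0.08. Ifi27l2a had a change of 1.15 ± 0.38 and the widest spread of the members within the GEM/anti-CD40 Ab group, with 9.12, 8.02, 6.22 and 8.93 in the GEM/anti-CD40 Ab tumors and 6.07, 6.04, 7.65 and 7.37 in the GEM tumors. Of the 16 members with more than 1 probe set, none had a further probe set with a change of opposite sign in this comparison, but sizes differed. Dimmer probe sets gave 0.23 for Xaf1, 0.36 for Parp14, 0.54 for Rtp4 and 0.73 for Ddx60.

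The comparison of the combination with GEM alone asked what the antibody added in tumors that had received gemcitabine. No member passed, with a smallest adjusted p of 0.197, and 0% of named genes were called. All 34 members were above 0, between 0.20 and 2.10 with a median of 1.04, against a median of -0.02 and 43.7% above 0 over all genes. An unadjusted p under 0.05 as higher was found for 31 members, and for 6.67% of all genes. For 26 members all 4 GEM/anti-CD40 Ab tumors were above all 4 GEM tumors, which was so for 3.69% of all genes. The largest differences were those of Ifit1 (2.10 ± 0.39), Ifit3 (1.87 ± 0.38), Oasl2 (1.77 ± 0.38), Ifit2 (1.73 ± 0.46), Irf7 (1.72 ± 0.39), Cmpk2 (1.69 ± 0.37) and Usp18 (1.63 ± 0.28). The smallest were those of Adar (0.27 ± 0.09), Mx2 (0.24 ± 0.12), Trim25 (0.24 ± 0.08) and Samd9l (0.20 ± 0.12). Without GEM/anti-CD40 Ab replicate 1 the difference of the module mean was 0.84 in place of 1.10.

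The antibody without gemcitabine, against control, gave a smaller mean difference, 0.68. No member was called (smallest adjusted p = 0.408) and 0% of named genes were. All 34 members were again above 0, between 0.15 and 1.25, where 44.15% of all genes were above 0. Of the members 29 had an unadjusted p under 0.05 as higher, against 3.52% of all genes. For 14 members, among them Ifit1, Ifit2, Ifit3, Irf7, Usp18, Rsad2, Cmpk2 and Xaf1, no anti-CD40 Ab tumor overlapped with a control, against 1.66% of all genes. The largest differences were those of Cmpk2 (1.25 ± 0.36), Ifit1 (1.23 ± 0.24), Irf7 (1.17 ± 0.16) and Usp18 (1.15 ± 0.21). Both comparisons with the antibody differ in their reference group, and whether the antibody difference itself depended on GEM was tested as the interaction. It called 0 members, and 0% of named genes. An unadjusted p under 0.05 as higher was found for 1 member, Oasl1, and for 512 of the 18193 named genes, a similar rate. Of the 34 members 32 were above 0, against 52.0% of all genes. The interaction of the module mean was 0.42, and 0.16 without GEM/anti-CD40 Ab replicate 1.

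**Figure D3:**
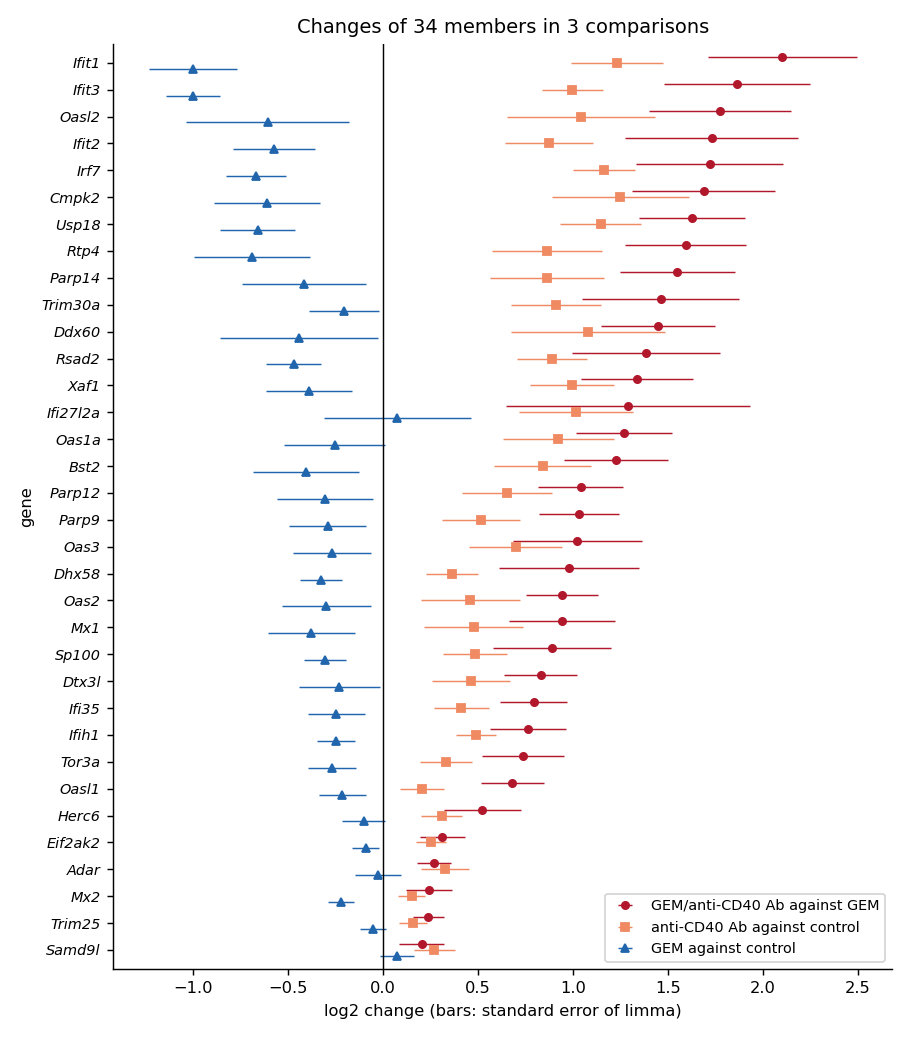
Log2 change of each of the 34 members for GEM/anti-CD40 Ab against GEM, anti-CD40 Ab against control and GEM against control, ordered by the first; points are the estimates and bars the standard errors of limma. All 34 are above 0 for both antibody comparisons, and 32 are below 0 for GEM against control; no member passed adjustment in these 3 comparisons.

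After GEM alone most members had lower values than in control tumors. Against control, 32 of 34 members were below 0, where 9240 of the 18193 named genes were below 0. The median of the members was -0.30 where the median over all genes was 0.00, and Samd9l and Ifi27l2a were the 2 members above 0. No member was called (smallest adjusted p = 0.218, for Ifit3), and 0% of named genes were. An unadjusted p under 0.05 as lower was found for 11 members and for 2.97% of all genes, and for 5 members (Ifit1, Ifit3, Irf7, Usp18 and Mx2) all GEM tumors lay below all controls, as was so for 1.84% of all genes. The differences were -1.0 ± 0.23 for Ifit1, -1.0 ± 0.14 for Ifit3, -0.67 ± 0.16 for Irf7, -0.66 ± 0.20 for Usp18 and -0.22 ± 0.07 for Mx2. For Ifit1, Ifit3, Irf7 and Usp18 all controls were also below all anti-CD40 Ab tumors. The share of all genes with this order of the 3 groups was not counted, so it is given as a description. T cell genes were also lower in this comparison, as the markers Cd3d, Cd3e, Cd3g, Cd4, Cd8a and Cd8b1 averaged 5.63 ± 0.11 in GEM and 6.16 ± 0.42 in control tumors. All 6 of these markers were below 0, 4 at an unadjusted p under 0.05, and none was called. Other lists were lower too, among them all 17 measured interferon gamma targets (median -0.56). All 3 measured markers of conventional dendritic cells and 4 of 5 macrophage markers were below 0. Tumor epithelium markers were split, with 2 above 0, of which Epcam differed by 0.75 ± 0.20, and 2 below. The part of any of these cells or genes in the difference was not tested.

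**Figure D4:**
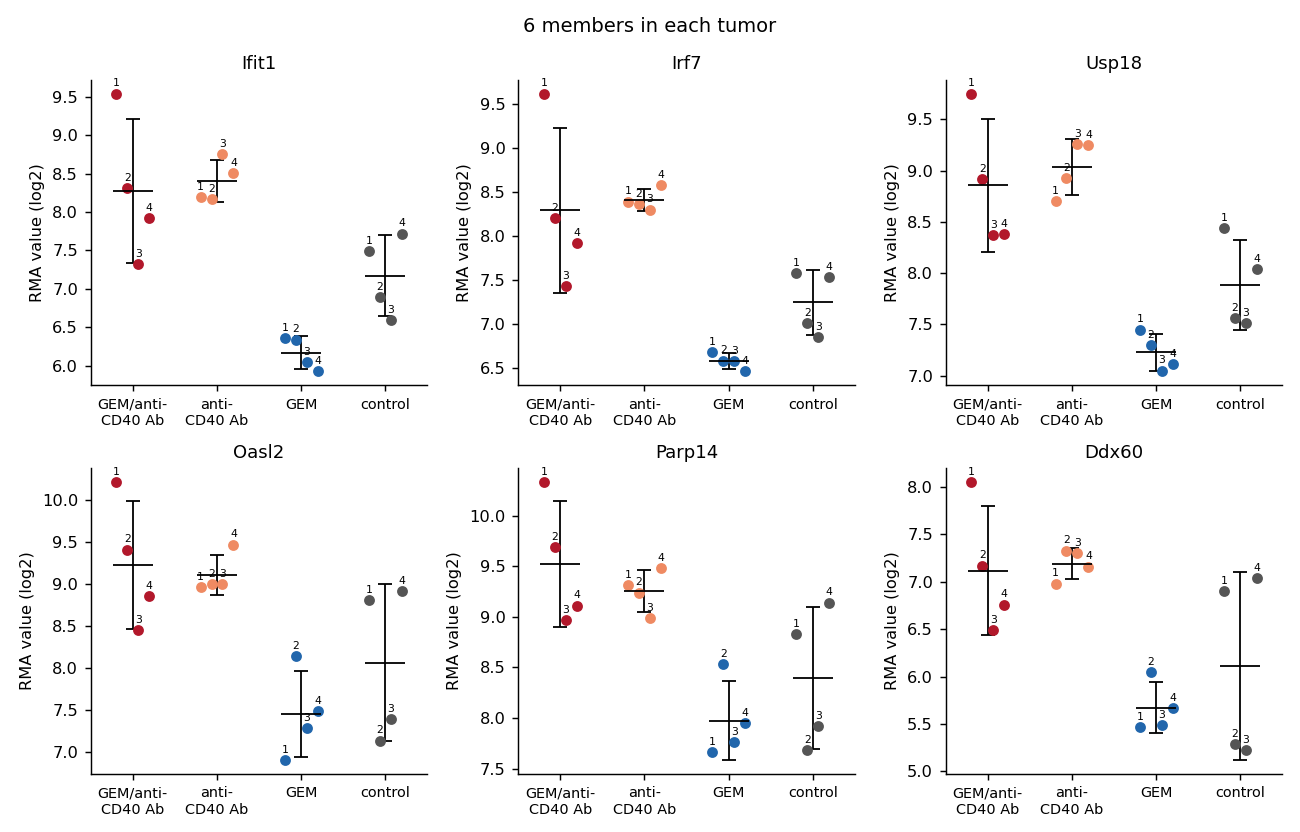
RMA values (log2) of Ifit1, Irf7 and Usp18 (upper row) and of Oasl2, Parp14 and Ddx60 (lower row) in each of 16 tumors, by group; points are tumors numbered by replicate, horizontal lines are group means and bars SD (n = 4). In the upper row all GEM tumors lie below all controls, whereas in the lower row GEM replicate 2 is the highest GEM tumor, above control replicates 2 and 3.

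No difference of a member was detected between the combination and the antibody alone. For GEM/anti-CD40 Ab against anti-CD40 Ab, 23 of 34 members were above 0, against 52.1% of all genes. The changes lay between -0.18 for Usp18 and 0.35 for Ifi27l2a. No member had an unadjusted p under 0.05, none was called, and 0% of named genes were called. The standard errors of these differences, for example 0.40 for Ifit1 and 0.29 for Usp18, do not show that the 2 groups were alike. Without GEM/anti-CD40 Ab replicate 1 the difference of the module mean was -0.20 in place of 0.07. Over both backgrounds, GEM against no GEM gave no called member, 4 at an unadjusted p under 0.05 as lower and 29 below 0, with 0.0055% of named genes called. Of the 18193 named genes, 451 had such a p as lower and 8750 were below 0. Against control, the combination called no member while 0.0275% of named genes were called. All 34 members were above 0 there, with a median of 0.75, where 45.2% of all genes were above 0. Of the members 19 had an unadjusted p under 0.05 as higher, against 5.86% of all genes. For no member did the 4 GEM/anti-CD40 Ab tumors lie above all 4 controls, which was so for 3% of all genes.

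The 34 members did not all share 1 order of tumors within the groups. GEM/anti-CD40 Ab replicate 1 was the highest of its group for all 34, and replicate 3 was the lowest for 25. Control replicates 1 and 4 were the upper 2 controls for 29 members, but the gap differed. Ddx60 read 6.90 and 7.04 in those 2 controls and 5.29 and 5.22 in replicates 2 and 3, while Irf7 spanned 0.73 over all 4. GEM replicate 2 was the highest GEM tumor for 18 members. Oasl2 read 6.91, 8.14, 7.29 and 7.49 in the GEM tumors and Parp14, Ddx60 and Bst2 also had their highest GEM value in replicate 2, whereas Ifit1, Irf7 and Usp18 were highest in replicate 1.

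The interferon genes themselves were not called. Of 17 listed ligands 9 had a probe set of their own, and the 8 type I interferons among them each spanned between 0.24 and 0.69 over the 16 tumors, which includes Ifnb1 at 4.20, 4.33, 4.14 and 4.12 in GEM/anti-CD40 Ab, 4.59, 4.24, 4.10 and 4.21 in anti-CD40 Ab, 4.14, 3.94, 3.90 and 3.99 in GEM, and 4.04, 4.28, 4.30 and 4.05 in control tumors. Brightness of a probe set near background does not give the level of its gene, so these values bear on differences between tumors alone. With the antibody over both backgrounds, 6 of the 9 ligands were above 0 and 3 below, where 41.4% of all genes were above 0. Of the 9 ligands 2 had an unadjusted p under 0.05 as higher (limma), against 7.4% of all genes. Interferon gamma (Ifng) had the widest range of the 9 ligands, with 8.39, 6.41, 4.92 and 5.08 in GEM/anti-CD40 Ab, 4.77, 5.53, 4.87 and 5.36 in anti-CD40 Ab, 3.62, 4.02, 3.83 and 3.74 in GEM, and 4.39, 3.59, 3.94 and 4.73 in control tumors. For Ifng all 8 antibody-treated tumors were above all 8 others, as for 30 of the 18193 named genes and none of the 34 members. The difference of Ifng was 1.68 ± 0.41 and did not pass (adjusted p = 0.0855). Of the receptor chains none was called, and the means of Ifnar1, Ifnar2, Ifngr1, Ifngr2, Ifnlr1 and Il10rb ranged between 9.43 and 9.86 in all 16 tumors.

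Of the kinases, STATs and interferon regulatory factors, 10 of 11 were measured and none was called with the antibody, while 5 were higher at an unadjusted p under 0.05. Stat2 and Irf9, partners in the complex that binds the ISRE, differed by 0.69 ± 0.15 (adjusted p = 0.0590) and 0.36 ± 0.10 (adjusted p = 0.118). Irf1 differed by 0.80 ± 0.21, whereas Irf5 differed by -0.12 ± 0.08. Among 12 measured sensors and adaptors 1 was called, Zbp1, a sensor of Z-form nucleic acid, which rose by 1.37 ± 0.26 (adjusted p = 0.0411). It read 9.49, 8.57, 7.54 and 8.01 in GEM/anti-CD40 Ab, 7.86, 7.63, 8.02 and 8.16 in anti-CD40 Ab, 6.52, 7.09, 6.37 and 6.41 in GEM, and 7.49, 6.32, 6.61 and 7.49 in control tumors. All antibody-treated tumors were thus above all others for Zbp1, which was so for 30 of the 18193 named genes. None of 6 negative regulators was called, and Socs1, which blocks the receptor kinases, differed by 0.94 ± 0.25 (adjusted p = 0.114).

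**Figure D5:**
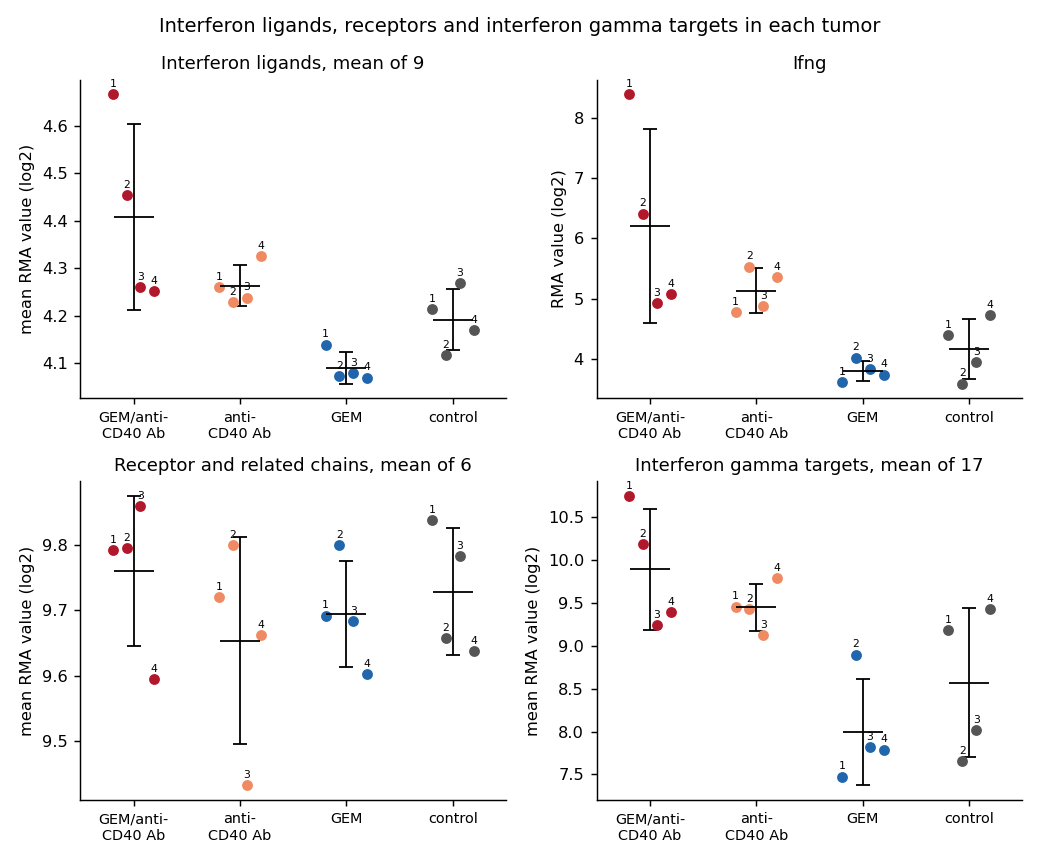
RMA values (log2) by group for the mean of 9 interferon ligands, for Ifng alone, for the mean of 6 receptor chains and for the mean of 17 interferon gamma targets; points are tumors numbered by replicate, lines are group means and bars SD (n = 4), and each panel has its own axis, none starting at 0. Ifng and the interferon gamma targets are highest in GEM/anti-CD40 Ab replicate 1, while the receptor means stay between 9.43 and 9.86.

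Interferon gamma targets had changes of the same sign as the members, with a larger median. Of 17 measured, all were above 0 with the antibody over both backgrounds, 16 at an unadjusted p under 0.05, with a median of 1.49 against 0.85 for the members, and 1, Igtp, was called (1.61 ± 0.33, adjusted p = 0.0480). Whether the 2 lists differ was not tested. Their mean was 10.75, 10.19, 9.24 and 9.40 in GEM/anti-CD40 Ab, 9.46, 9.43, 9.12 and 9.79 in anti-CD40 Ab, 7.48, 8.90, 7.82 and 7.79 in GEM, and 9.18, 7.65, 8.01 and 9.43 in control tumors. GEM replicate 2 was the highest GEM tumor here by over 1, as it was for Oasl2 and Parp14 by less and was not for Ifit1, Irf7 or Usp18. Gbp2 read 10.07, 12.06, 10.63 and 10.39 in the GEM tumors and Cxcl9 7.83, 10.39, 8.80 and 8.82.

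Markers of other cell types differed with the antibody in both directions, and none passed. Over both backgrounds all 5 macrophage markers were above 0 (median 0.37, 3 at an unadjusted p under 0.05), as were 4 of 6 T cell markers (median 0.70, 4 at an unadjusted p under 0.05) and 3 of 3 endothelial markers (median 0.60, 3 at an unadjusted p under 0.05). All 4 fibroblast markers (median 0.46, 2 at an unadjusted p under 0.05), 3 of 3 neutrophil markers (median 0.55, 1 at an unadjusted p under 0.05) and 3 of 3 NK cell markers (median 0.08) were above 0 as well. All 3 measured markers of conventional dendritic cells were below 0 (median -0.17, 2 at an unadjusted p under 0.05 as lower), and of 2 B cell markers 1 was above 0 (median 0.01). Macrophage markers averaged 9.77, 9.28, 8.75 and 9.02 in GEM/anti-CD40 Ab, 8.73, 8.57, 8.69 and 9.17 in anti-CD40 Ab, 8.32, 8.36, 8.71 and 8.92 in GEM, and 8.93, 8.66, 8.33 and 8.93 in control tumors. They were thus highest in GEM/anti-CD40 Ab replicate 1 and lowest of that group in replicate 3, as the members were. Replicate 3 was also lowest of that group for the monocyte marker Ccr2 and for NK cell, fibroblast, endothelial and plasmacytoid dendritic cell markers. T cell, neutrophil, B cell and conventional dendritic cell markers were lowest in replicate 4. Tumor epithelium markers were highest in replicate 3, at 13.17 against 12.84, 12.86 and 13.06 in replicates 1, 2 and 4. T cell markers averaged between 5.90 and 7.04 in GEM/anti-CD40 Ab, between 6.17 and 7.33 in anti-CD40 Ab, between 5.52 and 5.77 in GEM and between 5.75 and 6.54 in control tumors. Of 4 markers of plasmacytoid dendritic cells, which can produce much interferon alpha, 1 was above 0, and their mean lay between 5.53 and 5.87. Siglech stayed between 5.00 and 5.33 and Ccr9 between 3.51 and 4.26 in all 16 tumors. The part of these cells in the members' differences was not tested.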

How the data were processed

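Total RNA of 16 whole tumors was labeled with biotin and hybridized to Affymetrix mouse arrays. The authors normalized the arrays with Robust Multichip Averaging (RMA), and the deposited values are log2 expression values with 2 decimals; per the submitters' processing notes RMA was used, with no version given, and no build is named. Without its 64 control probe sets, the table of 45101 left 45037 for testing, with no filter on low values. A probe set was named where the annotation gives 1 gene (34945), several genes were given for 932 and none for 9160. The brightest probe set over 16 arrays represents a gene. Pairs of groups were compared on their 8 arrays, and the interaction and the effects over both backgrounds on 16, with limma 3.58.1 in R 4.3.3 (moderated variances, Benjamini-Hochberg over all probe sets, two-sided, threshold 0.05). Errors of changes are limma's standard errors. The fits were run on simulated arrays with known changes, in which each probe set varied on its own. That run checks the fitting, and it cannot show how the calls depend on single arrays or on a shared animal.

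All members are named, with most room for the largest changes with GEM/anti-CD40 Ab against GEM and for each role. Members, lists, roles, tests and alternatives were chosen with earlier results of these data known. The alternatives were 1 fit for all arrays, a filter on low probe sets, another variance prior, 2 other normalizations, 2 other choices of probe set, a replicate block, and arrays averaged or left out. With 4 arrays per group the number of arrays limits the precision. Promoter sequences are those of RefSeq (GRCm38.p6), matched by symbol.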

Additional observations from a re-analysis of the deposited data

Results flagged for a closer look

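Of 140 sets of 4 arrays, one for each member and group plus the module mean, 6 held an array whose distance from the nearest other array took up most of the range of its group, and chance alone would mark about 1 in 20. Anti-CD40 Ab replicate 4 was above its group for Ifit2 at 8.21 (others 7.54 to 7.65), for Oasl2 at 9.47 (others 8.96 to 9.0) and for Ifi35 at 10.53 (others 10.26 to 10.28). GEM/anti-CD40 Ab replicate 1 was above its group for Oas3 at 7.20, where the others read 5.53 to 5.78. Below their groups were GEM replicate 1 for Ifi35 at 9.44 (others 9.73 to 9.77) and anti-CD40 Ab replicate 3 for Samd9l at 10.65 (others 11.01 to 11.04). No cause of these values was tested.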

How the results depend on the processing

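The number of members called for anti-CD40 Ab over both backgrounds, 12, depended on the arrays and on the settings. It was 19 with probe sets below the median left out, 4 with a trended robust variance prior, 1 with GEM replicates 3 and 4 averaged, and 1 without the 3 arrays highest in skin or muscle genes. GEM replicate 4, whose muscle genes averaged 8.07, was kept in that last setting. With the replicate block it was 5 (Ifit1, Ifit3, Irf7, Usp18 and Xaf1); the numbers do not pair the samples, with a median correlation of 0.04 over 24 same-numbered pairs and -0.02 over 72 others. Other normalizations and choices of probe set gave 8 to 16. With 1 array left out it ranged between 1 and 21. It was 1 without control replicate 2 or 3, anti-CD40 Ab replicate 4 or GEM replicate 1, 3 or 4, 2 without GEM replicate 2 or GEM/anti-CD40 Ab replicate 2, 3 without anti-CD40 Ab replicate 3, and 5 without anti-CD40 Ab replicate 1 or GEM/anti-CD40 Ab replicate 4. It was 20 without control replicate 1, 18 without control replicate 4 and 21 without GEM/anti-CD40 Ab replicate 3. Usp18 was called in all 16 of these and in all 9 other settings, Ifit1 and Irf7 in 9 of 16 and Ifit3 in 7 of 16. The cause of these differences was not tested. In the other 7 comparisons the count was 0 in every setting run. The module mean difference kept its sign in every setting run except for GEM/anti-CD40 Ab against anti-CD40 Ab, where it ranged between -0.20 and 0.26. Over all settings the 12 called members gave 300 values for the antibody over both backgrounds, of which 144 kept the call, 156 lost it and 0 changed direction. Of the 22 members not called, 10 were called in at least 1 setting (Ifit2, Oasl2, Ddx60, Trim30a, Parp9, Parp12, Dtx3l, Ifi35, Eif2ak2 and Ifi27l2a). The values carry no detection call, so a dim probe set cannot be told from background.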
